A study of Mus musculus with 30 samples.

Results

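Mouse macrophages sorted on F4/80 after culture with an agonist of the retinoic acid receptors were compared with macrophages sorted after culture with an inverse agonist of the same receptors. The ATRA group was 3 libraries from macrophages given 1 uM ATRA (all-trans retinoic acid), and the BMS493 group was 3 libraries from macrophages given 1 uM BMS493. The libraries were chosen by their titles and make up 6 of the 30 libraries in the series. Each comes from 25000 sorted cells and polyA RNA. The other libraries used for context, 3 for each group, include macrophages cultured alone and macrophages cultured with PDPN+ cells of the omentum. They also include PDPN+ cells cultured alone, PDPN+ cells sorted from co-culture with macrophages and PDPN+ cells sorted from BMS493 cultures. No genetic alteration is named for any group, and the labels do not say for how long the compounds were given, the strain, age or sex of the mice, or whether the 3 replicates of a group are separate animals or cultures. The p-values therefore measure the spread between these libraries, which may be technical. The labels also do not say whether the BMS493 macrophages shared their wells with PDPN+ cells, whereas PDPN+ cells from BMS493 cultures were sorted in the same processing batches. For that reason genes whose mean level in PDPN+ cells alone was over 4 times that in macrophages alone were set apart as a stromal-high class. The class sets apart stromal transcripts only, and no effect of PDPN+ cells on the macrophages' own genes. If only the BMS493 macrophages shared their wells with PDPN+ cells, effects of the compounds and of those cells cannot be told apart, also outside the class.

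Retinoic acid is made from vitamin A and binds nuclear receptors of the RAR family, which sit on DNA with an RXR partner. Without a ligand the pair recruits corepressors and holds its target genes down, and an agonist such as ATRA exchanges the corepressors for coactivators. BMS493 binds the same pocket and strengthens corepressor binding, so it lowers target genes also where the cells receive retinoic acid from elsewhere. In the peritoneal cavity and omentum, retinoic acid is known to maintain Gata6, the transcription factor that sets the gene programme of resident cavity macrophages.

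The 6 libraries held 30883620 to 45068584 counts and between 22152 and 24054 genes with a count, and their RNA integrity numbers ran from 9.5 to 9.8. All 18 pan-macrophage markers were detected in both groups, and their summed level was 169600, 247400 and 137500 CPM (counts scaled to library size) in the ATRA libraries, against 145000, 207300 and 125300 CPM in the BMS493 libraries. The defining macrophage transcripts were thus present in every library. The summed level of 16 fibroblast genes was 107, 65.5 and 191 CPM in ATRA macrophages, against 1350, 1104 and 1484 CPM in BMS493 macrophages, with no member at 0 in all libraries of a group. Fibroblast transcripts were thus higher in every BMS493 library than in any ATRA library. The same sum was 54.7, 17.7 and 145.5 CPM in macrophages alone and 1824, 718 and 404 CPM in co-cultured macrophages. In PDPN+ cells the pan-macrophage sum was 1790, 4150 and 2822 CPM after BMS493 cultures and 2634, 2448 and 1803 CPM after co-culture. In PDPN+ cells alone it was 154, 92.0 and 102 CPM. Whether these levels come from shared wells was not tested. In bulk RNA, fewer cells of a type and less RNA per cell cannot be told apart. Replicates 1, 2 and 3 belong to processing batches mbb336, mbb339 and mbb340, and replicate 3 stood apart from the others in both groups.

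Of 17774 genes tested, 712 (4.01%) differed between ATRA and BMS493 macrophages at an adjusted p under 0.05, 396 of them higher (2.23%) and 316 lower (1.78%) in ATRA macrophages. Unless another fit is named, adjusted p-values come from edgeR's quasi-likelihood test with Benjamini-Hochberg adjustment over all 17774 genes. A gene past that threshold is said to have risen or fallen. Where another fit is named, the adjustment ran over the genes tested in that fit, and DESeq2 used its own test and adjustment. The 2 directions divided differently between the classes. Outside the stromal-high class 524 genes were called (3.38%), and inside it 188 (8.3%). Outside it, 364 of 15510 genes rose (2.35%) and 160 fell (1.03%), and inside it, 32 of 2264 rose (1.41%) and 156 fell (6.89%). Around the class border, 1874 tested genes had a ratio of 2 to 4 between PDPN+ cells and macrophages and 735 had a ratio of 4 to 8. The 3 ATRA and 3 BMS493 libraries did not overlap for 393 of the 396 genes that rose and 311 of the 316 that fell, while 20.6% of all tested genes had ranges that did not overlap. With the processing batch as a block, which the labels tie to the replicate number, 1459 genes were called in all and 1109 outside the class. The count ran from 274 without ATRA replicate 2 to 1195 without ATRA replicate 3, and it was 295 without BMS493 replicate 2, 345 without BMS493 replicate 1, 436 without ATRA replicate 1 and 641 without BMS493 replicate 3. Outside the class it was 209 without ATRA replicate 2, 209 without BMS493 replicate 2, 250 without BMS493 replicate 1, 317 without ATRA replicate 1 and 971 without ATRA replicate 3. List counts given below for another fit stand beside that fit's own totals. With the block 738 genes rose and 721 fell, and with the DESeq2 Wald test 779 rose and 833 fell. Without batch mbb340, 1023 rose and 1208 fell.

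**Figure D1:**
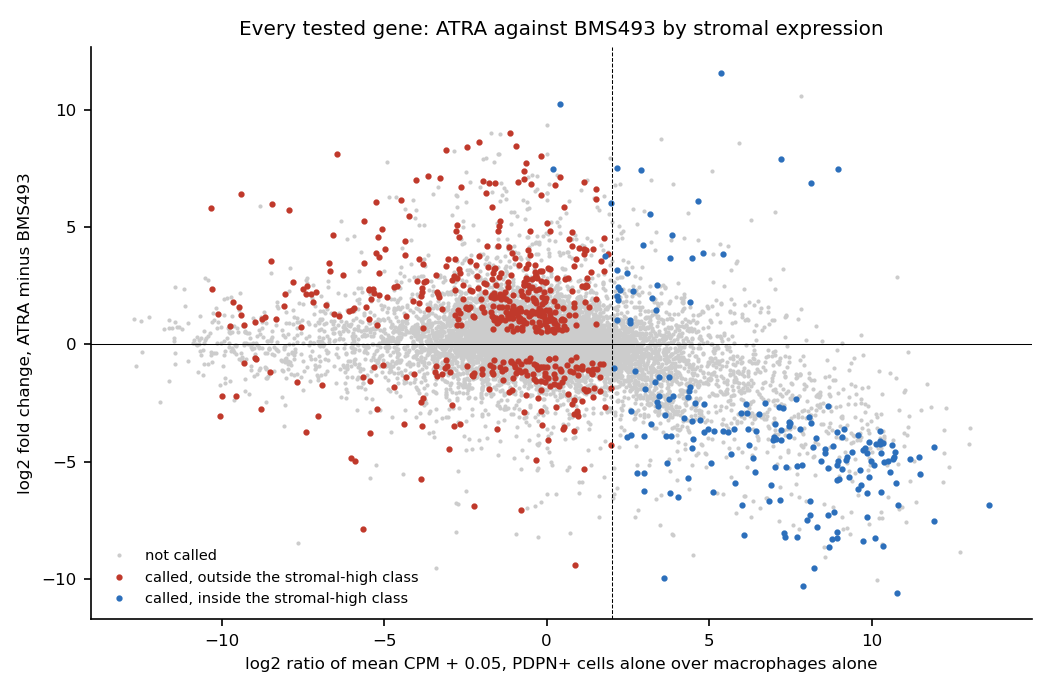
Each point is 1 of the 17774 tested genes. The horizontal axis is the log2 ratio of mean CPM + 0.05 in PDPN+ cells alone over macrophages alone, the vertical axis is the log2 fold change of ATRA minus BMS493 macrophages, and the dashed line marks the 4-fold class border. The 364 and 160 called genes outside the class (red) lie on both sides of 0, and most of the 188 called inside it (blue) lie below 0. A few class members lie left of the line because 0.05 was added to both levels.

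Every retinoic acid response gene that passed the test was higher in ATRA macrophages. Of the 15 tested genes in a list of retinoic acid response genes, 6 rose in ATRA macrophages and none fell. The share that rose was 40%, against 2.23% of all genes tested. The median log2 fold change was 2.02 over the list and 0.04 over all genes tested. Those that rose were Cyp26a1, Rarb, Nrip1, Tgm2, Dhrs3 and Rarg. Cyp26a1 (chr19:37697798-37701536), the enzyme that hydroxylates retinoic acid for disposal, had 204.5, 380.1 and 86.7 CPM in ATRA macrophages, against 0, 0.0706 and 0.1601 CPM in BMS493 macrophages. In counts this was 18894 reads over the ATRA libraries and 6 over the BMS493 libraries, a difference of 11.59 on the log2 scale (SE 1.57, adjusted p = 0.00143). Macrophages cultured alone had no Cyp26a1 count, and co-cultured macrophages held 11.2 ± 7.10 CPM. Rarb (chr14:16430839-16819156), a retinoic acid receptor that is itself induced by retinoic acid, had 13.03, 25.7 and 32.7 CPM in ATRA macrophages, against 0.313, 0.742 and 0.4802 CPM in BMS493 macrophages. Its lowest ATRA library was thus far above its highest BMS493 library (log2 fold change 5.58, SE 0.52, adjusted p = 4.68e-05). The Rarb level was 1.58 ± 1.08 CPM in macrophages cultured alone and 19.9 ± 5.22 CPM in co-culture. Both genes fall in the stromal-high class, and PDPN+ cells from BMS493 cultures had 0.957 ± 0.9396 CPM of Cyp26a1 and 0.249 ± 0.344 CPM of Rarb, both below the ATRA macrophages.

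Of the called genes with an entry in the promoter table, Cyp26a1 and Rarb held a spaced pair of retinoic acid receptor half-sites. Their promoters are shown because the repeat is the textbook binding site of the receptor pair in these same genes. The search covered RefSeq promoters of GRCm38.p6, from 250 bases before to 50 after each gene's start, for 2 direct copies of a half-site with 5 bases between them, on both strands, so that the copies of a pair cannot overlap. The half-sites accepted were AGGTCA and the related GGGTCA, then AGTTCA and the related GGTTCA. Each promoter is printed 5′ to 3′ on the gene's strand with the half-sites in capitals.
Cyp26a1, chr19:37697558-37697857, plus strand: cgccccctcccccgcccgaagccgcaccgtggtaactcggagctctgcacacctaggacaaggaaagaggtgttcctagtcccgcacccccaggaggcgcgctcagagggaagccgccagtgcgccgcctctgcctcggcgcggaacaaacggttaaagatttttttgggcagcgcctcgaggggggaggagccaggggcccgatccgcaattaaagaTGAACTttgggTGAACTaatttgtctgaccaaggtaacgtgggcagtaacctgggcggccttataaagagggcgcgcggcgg
Rarb, chr14:16575427-16575726, minus strand: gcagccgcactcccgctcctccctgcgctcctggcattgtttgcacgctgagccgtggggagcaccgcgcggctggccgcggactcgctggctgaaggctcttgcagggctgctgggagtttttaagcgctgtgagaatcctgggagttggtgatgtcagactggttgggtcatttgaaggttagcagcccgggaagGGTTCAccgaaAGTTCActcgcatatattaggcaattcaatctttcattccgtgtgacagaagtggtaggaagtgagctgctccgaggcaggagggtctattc
The Rarb region lies inside that gene's annotated span, at a RefSeq start. In the Cyp26a1 promoter the repeat reads on the other strand, and in the Rarb promoter it reads on the gene's strand. Its end farther from the gene's start lies 32 bases before the start in Cyp26a1 and 53 bases before it in Rarb. Read in the direction of the repeat, the sites compare as follows.
Cyp26a1 site: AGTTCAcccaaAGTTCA
Rarb site: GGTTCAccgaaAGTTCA
They share 15 of 17 bases, and counted from 1 at the 5′ end of the repeat the differences from Rarb to Cyp26a1 are G1A and G9C. Such a repeat was present in 32 of 32851 promoters in the table (0.0974%), in 8 of 11657 tested genes with a promoter (0.0686%) and in 2 of 277 genes that rose (0.722%). The other 6 tested genes with the repeat were Ppbp, Prokr2, Tnfsf13b, Gm4631, Cfap45 and Blvrb, with log2 fold changes between -0.30 and 2.82, and none was called. A match describes these letters only, and a promoter without a match may be bound at other positions.

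Among the enzymes that remove retinoids, 3 of 4 tested genes rose (75%, against 2.23% of all genes tested), namely Cyp26a1, Dhrs3 and Cyp26c1. Dhrs3 (chr4:144892827-144928209), which reduces retinaldehyde back to retinol, had 463, 555 and 256 CPM in ATRA macrophages, against 113, 114 and 54.3 CPM in BMS493 macrophages. It differed by 2.25 on the log2 scale (SE 0.39, adjusted p = 0.00475), and in the fit on the 6 libraries alone the adjusted p was 0.0549. Dhrs3 stood at 229 ± 97.1 CPM in macrophages cultured alone and 249.6 ± 61.2 CPM in co-culture, so the BMS493 libraries were below both. Cyp26c1, another retinoic acid hydroxylase, had 0.914, 0.619 and 0.5565 CPM in ATRA macrophages and no count in BMS493 macrophages, that is 62 counts against 0 and at least 29.2-fold higher when the BMS493 group is set at a floor of 3 counts over its libraries. Its call (adjusted p = 0.0268) was lost without ATRA replicate 1 (adjusted p = 0.0672), without ATRA replicate 2 (0.076), without BMS493 replicate 1 (0.0832), without BMS493 replicate 2 (0.092) and without BMS493 replicate 3 (0.0594). The fourth enzyme, Cyp26b1, had 0, 0 and 0.309 CPM in ATRA macrophages and no count in BMS493 macrophages (adjusted p = 0.302).

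The receptors themselves responded unequally, and 2 of 6 rose (33.3%, against 2.23% of all genes tested). Beside Rarb, Rarg (chr15:102234938-102257517), another member of the RAR family, had 9.57, 13.3 and 6.55 CPM in ATRA macrophages, against 3.57, 3.43 and 3.36 CPM in BMS493 macrophages. The ranges did not overlap (log2 fold change 1.57, SE 0.30, adjusted p = 0.00879), but the call was lost in the fit on the 6 libraries alone (adjusted p = 0.0927), without ATRA replicate 2 (0.0653) and without BMS493 replicate 2 (0.056). Rara, a broadly expressed RAR, had 11.5, 13.2 and 18.2 CPM in ATRA macrophages, against 11.01, 14.5 and 19.1 CPM in BMS493 macrophages. Its groups overlapped throughout (log2 fold change -0.01, adjusted p = 0.989). Rxra and Rxrb, the common partners, had log2 fold changes of 0.32 (adjusted p = 0.657) and 0.73 (adjusted p = 0.239), and Rxrg had one of -0.10 (adjusted p = 0.955). On the length-adjusted scale of the deposited RPKM, the order in ATRA macrophages was Rxrb at 14.9, Rxra at 8.06, Rarb at 7.05, Rara at 3.36, Rarg at 2.92 and Rxrg at 1.25 RPKM. In BMS493 macrophages it was Rxrb at 9.47, Rxra at 6.74, Rara at 3.52, Rxrg at 1.40, Rarg at 1.03 and Rarb at 0.152 RPKM. Rarb was thus the third RAR or RXR transcript by level with ATRA and the sixth with BMS493.

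**Figure D2:**
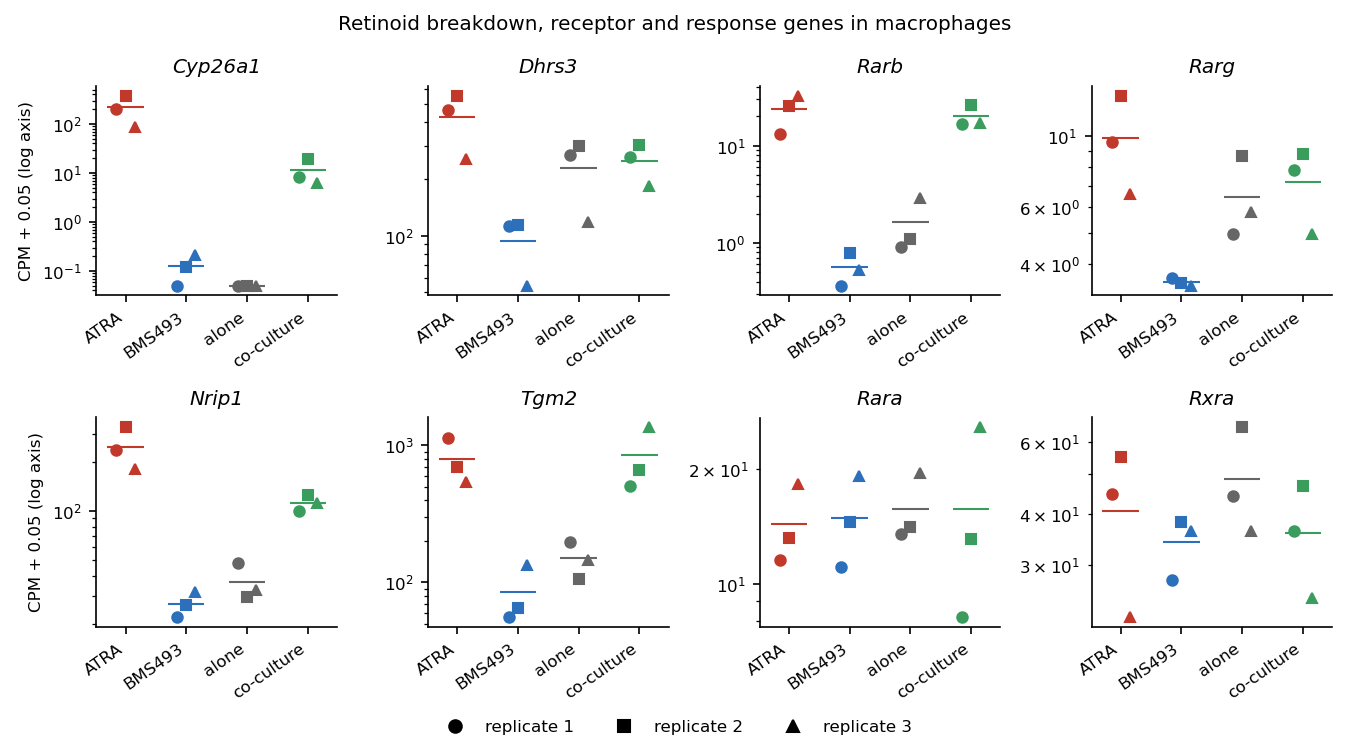
Levels of 8 retinoid genes in ATRA, BMS493, alone and co-cultured macrophages, as CPM + 0.05 on a log axis with its own range in each panel. Marks are libraries, with a shape for each replicate number, and lines are means. Cyp26a1, Rarb, Nrip1, Tgm2, Dhrs3 and Rarg have all ATRA libraries above all BMS493 libraries, while Rara and Rxra overlap.

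Nrip1 (chr16:76287400-76373827), a corepressor that binds ligand-occupied nuclear receptors and is a known retinoic acid target, had 236, 329.5 and 182 CPM in ATRA macrophages, against 22.1, 26.45 and 31.7 CPM in BMS493 macrophages. It had the lowest adjusted p of the response list (log2 fold change 3.28, SE 0.27, adjusted p = 1.85e-05), with 36.7 ± 9.82 CPM in macrophages cultured alone and 113 ± 12.75 CPM in co-culture. Tgm2 (chr2:158116402-158146436), the tissue transglutaminase that crosslinks proteins, had 1135, 696 and 537 CPM in ATRA macrophages, against 55.6, 65.4 and 134 CPM in BMS493 macrophages (log2 fold change 3.27, SE 0.58, adjusted p = 0.00509). It stood at 149.6 ± 45.5 CPM in macrophages cultured alone and 843 ± 453 CPM in co-culture. The remaining response genes above 1 CPM were not called. Hic1, a transcriptional repressor, had 3.04, 4.14 and 7.82 CPM in ATRA macrophages, against 0.7196, 1.165 and 1.08 CPM in BMS493 macrophages (adjusted p = 0.338). Cebpe, a granulocyte transcription factor, had log2 fold change 1.56 (adjusted p = 0.579). Of 15 corepressors and coactivators of nuclear receptors, Nrip1 alone rose (6.67%, against 2.23% of all genes tested), with a list median of 0.38. With the batch block 3 of them rose.

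On the supply side of retinoic acid, 1 of 9 tested uptake and synthesis genes was called, while 4.01% of all genes tested were. Aldh1a3, which oxidises retinaldehyde to retinoic acid, had 0.555, 0.07735 and 1.73 CPM in ATRA macrophages, against 3.13, 7.59 and 12.7 CPM in BMS493 macrophages (log2 fold change -3.27, adjusted p = 0.0341). That call was lost in the fit on the 6 libraries alone (adjusted p = 0.172), in the fit on the 15 cultured macrophage libraries (0.0575), without ATRA replicate 1 (0.125), without ATRA replicate 2 (0.0862), without BMS493 replicate 2 (0.0843) and without BMS493 replicate 3 (0.0971). Aldh1a2, the related synthesis enzyme, had 20.1, 35.85 and 38.9 CPM in ATRA macrophages, against 10.7, 15.01 and 15.65 CPM in BMS493 macrophages. Its ranges did not overlap, yet it did not pass the test (log2 fold change 1.24, adjusted p = 0.173), and it stood at 1.385 ± 0.748 CPM in macrophages cultured alone and 15.1 ± 2.49 CPM in co-culture. Of the 9 tested genes, 6 belong to the stromal-high class, Aldh1a3 and Aldh1a2 among them. For Aldh1a3 the stromal amount estimated further below was 46.6% of the BMS493 level, and its part in the difference was not tested.

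The gene programme of cavity macrophages was described next. Of 28 tested members, 12 rose in ATRA macrophages and none fell (42.9%, against 2.23% of all genes tested), with a median log2 fold change of 2.16. Gata6 (chr18:11052064-11085635), the factor that sets this programme, had 47.1, 82.3 and 101 CPM in ATRA macrophages, against 3.16, 5.37 and 7.08 CPM in BMS493 macrophages. The BMS493 level was close to that of macrophages alone, at 5.47 ± 1.89 CPM, and co-cultured macrophages had 55.3 ± 23.1 CPM. Gata6 rose by 3.93 on the log2 scale (SE 0.54, adjusted p = 0.00112). It is a member of the stromal-high class, since PDPN+ cells alone held 155 ± 38.3 CPM, and the part of stromal transcripts in its level was not tested. Selp (chr1:164115264-164150026), which encodes P-selectin, an adhesion molecule for leukocytes and platelets, had 219, 573 and 453 CPM in ATRA macrophages, against 3.35, 1.94 and 2.201 CPM in BMS493 macrophages. It had the lowest adjusted p among the members (log2 fold change 7.41, SE 0.49, adjusted p = 2.96e-06). F5 (chr1:164151838-164220277), the coagulation factor V gene next along the same chromosome, had 237, 733 and 341 CPM in ATRA macrophages, against 8.48, 0.848 and 11.96 CPM in BMS493 macrophages (log2 fold change 5.98, SE 0.79, adjusted p = 0.000804). P2rx1 (chr11:72999103-73015200), an ATP-gated cation channel, had 95.95, 229.8 and 197 CPM in ATRA macrophages, against 0.219, 1.31 and 0.4001 CPM in BMS493 macrophages (log2 fold change 8.13, SE 0.86, adjusted p = 0.000135). For Selp and P2rx1 every BMS493 library was also below every library of macrophages cultured alone.

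Other members of the programme moved over a wide range of levels. Alox15 (chr11:70344152-70352031), a lipoxygenase of cavity macrophages and eosinophils, had 2211, 4170 and 988 CPM in ATRA macrophages, against 58.8, 21.9 and 7.48 CPM in BMS493 macrophages (log2 fold change 6.45, adjusted p = 0.0116). Its call was lost without BMS493 replicate 2 (adjusted p = 0.0733). Cxcl13, the chemokine that draws B cells to the omentum, had 973, 473 and 450.4 CPM in ATRA macrophages, against 8.385, 8.05 and 17.4 CPM in BMS493 macrophages (log2 fold change 5.87, adjusted p = 0.0124). That call was lost without BMS493 replicate 1 (adjusted p = 0.0648) and without BMS493 replicate 2 (0.0759). Ltbp1, which anchors latent TGF-beta to the matrix, had 643, 919 and 447 CPM in ATRA macrophages, against 21.3, 30.3 and 35.5 CPM in BMS493 macrophages (log2 fold change 4.59, adjusted p = 0.000862). Naip1, a sensor of bacterial proteins, had 92.9, 145 and 78.1 CPM in ATRA macrophages, against 8.98, 4.73 and 15.45 CPM in BMS493 macrophages (log2 fold change 3.49, adjusted p = 0.000483). Both kept their call under all 15 alternatives tried. Itga6, a laminin-binding integrin subunit, had 621, 747 and 926 CPM in ATRA macrophages, against 124, 225 and 127 CPM in BMS493 macrophages (log2 fold change 2.32, adjusted p = 0.0145), and lost its call without ATRA replicate 2 (adjusted p = 0.0514), without BMS493 replicate 1 (0.0697) and without BMS493 replicate 3 (0.0516). The other members that rose were Aspa, Garnl3 and Lyve1, with log2 fold changes of 3.63, 2.82 and 4.19. Aspa lost its call in the fit on the 6 libraries alone (adjusted p = 0.061). Garnl3 lost its own in the fit on the 6 libraries alone (adjusted p = 0.0731), without ATRA replicate 2 (0.0525) and without BMS493 replicate 2 (0.0585). The Lyve1 call was lost in the fit on the 6 libraries alone (adjusted p = 0.145), in the fit on the 15 cultured macrophage libraries (0.095), without ATRA replicate 1 (0.0812), without ATRA replicate 2 (0.0645), without BMS493 replicate 1 (0.136) and without BMS493 replicate 2 (0.138).

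Several well-known members did not pass. Timd4, the phosphatidylserine receptor of long-lived resident macrophages, had 170.5, 102 and 23.3 CPM in ATRA macrophages, against 3.13, 1.84 and 0.120 CPM in BMS493 macrophages. Although the groups did not overlap, replicate 3 was lowest in both, and the adjusted p was 0.0509 (log2 fold change 5.93, SE 1.60); with the batch block it was 0.00301. Icam2 had log2 fold change 1.31 (adjusted p = 0.156), and its ATRA libraries at 19.4, 44.4 and 128 CPM spanned the BMS493 libraries at 22.6, 29.98 and 26.01 CPM. Tgfb2 had 30.2, 19.8 and 3.06 CPM in ATRA macrophages, against 5.76, 11.05 and 20.6 CPM in BMS493 macrophages (log2 fold change 0.59, adjusted p = 0.76). Arg1, the arginine-degrading enzyme of alternatively activated macrophages, had 1625, 5781 and 12860 CPM in ATRA macrophages, against 557, 249 and 3592 CPM in BMS493 macrophages (adjusted p = 0.383). The number of programme genes that rose was 8 without BMS493 replicate 2 and 14 at most with any library left out, and leaving out batch mbb340 in all groups gave 21. Adgre1, the F4/80 antigen on which the cells were sorted, had 2725, 3055 and 4667 CPM in ATRA macrophages, against 2098, 2490 and 1789 CPM in BMS493 macrophages (log2 fold change 0.76, adjusted p = 0.122). None of the 18 pan-macrophage genes was called, with a median log2 fold change of 0.13, 1 in each direction with the batch block, 2 higher and 1 lower with DESeq2, and 4 higher and 1 lower without batch mbb340.

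**Figure D3:**
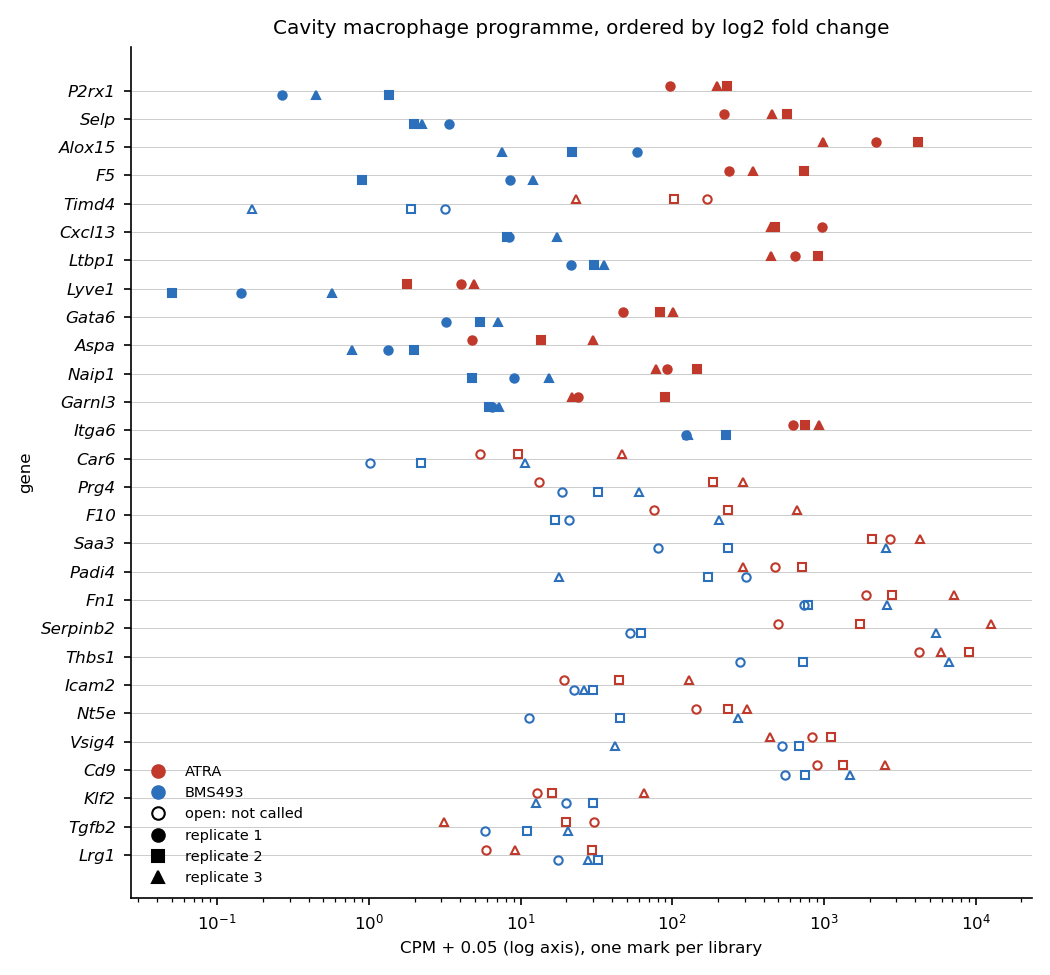
The 28 cavity programme genes in order of log2 fold change, with CPM + 0.05 on a log axis. Each mark is a library (ATRA red, BMS493 blue, shape by replicate number), filled where the gene was called and open where it was not. The 12 filled genes have every ATRA mark to the right of every BMS493 mark.

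Outside these lists, the largest increases outside the stromal-high class, among genes with at least 10 CPM on average in the higher group, fell on genes of varied function. Ccl24 (chr5:135569937-135573049), a chemokine for eosinophils, had 221, 828.5 and 2520 CPM in ATRA macrophages, against 2.22, 1.801 and 6.16 CPM in BMS493 macrophages (log2 fold change 8.46, SE 1.39, adjusted p = 0.0033). Its ATRA libraries differed widely among themselves, and all were above the BMS493 libraries. Cp (chr3:19957054-20009145), the copper ferroxidase ceruloplasmin, had 465, 417.5 and 148 CPM in ATRA macrophages, against 5.01, 2.47 and 2.201 CPM in BMS493 macrophages (log2 fold change 6.79, SE 0.97, adjusted p = 0.00142). For Cp the co-cultured macrophages stood at 34.7 ± 17.6 CPM and those alone at 26.4 ± 16.8 CPM, both below ATRA and above BMS493. Chst15 (chr7:132235780-132317228), a chondroitin sulfate sulfotransferase, had 78.5, 95.3 and 40.4 CPM in ATRA macrophages, against 0.313, 0.706 and 0.8403 CPM in BMS493 macrophages (log2 fold change 6.92, SE 0.78, adjusted p = 0.00024). Bmp2, a secreted ligand of the BMP pathway, had 60.9, 53.8 and 12.6 CPM in ATRA macrophages, against 0.219, 0 and 0.7603 CPM in BMS493 macrophages (log2 fold change 7.11, SE 1.01, adjusted p = 0.0014). Foxq1, a forkhead transcription factor, had 12.7, 22.2 and 7.203 CPM in ATRA macrophages, against 0, 0.0353 and 0.2801 CPM in BMS493 macrophages (log2 fold change 7.14, SE 1.03, adjusted p = 0.00142). In Bmp2 and Foxq1 the BMS493 libraries were below all 3 libraries of macrophages alone, and in Foxq1 the co-cultured libraries (0.9335, 0.715 and 2.82 CPM) were also low. Csn3, which encodes kappa-casein, had 1.63, 14.1 and 21.1 CPM in ATRA macrophages, against 0.156, 0.0706 and 0.08003 CPM in BMS493 macrophages (log2 fold change 6.85, SE 0.92, adjusted p = 0.000882).

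The other 3 of the largest increases lost their calls when some single libraries were left out. Prtn3, a serine protease of neutrophil granules, had 56.1, 117 and 6.03 CPM in ATRA macrophages, against 0.219, 0.2825 and 0.3601 CPM in BMS493 macrophages (log2 fold change 7.77, adjusted p = 0.0103). Ubash3a, a regulator of antigen receptor signalling, had 23.9, 50.01 and 17.96 CPM in ATRA macrophages, against 0.0313, 0 and 0.2801 CPM in BMS493 macrophages (log2 fold change 8.30, adjusted p = 0.00896). Cd200r3, an activating receptor of the CD200 receptor family, had 4.801, 18.3 and 7.73 CPM in ATRA macrophages, against 0.125, 0.177 and 0.120 CPM in BMS493 macrophages (log2 fold change 6.20, adjusted p = 0.0103). Every ATRA library was above every BMS493 library for each of them. The Prtn3 call was lost without BMS493 replicate 1 (adjusted p = 0.0605) and without BMS493 replicate 2 (0.0647), the Ubash3a call without BMS493 replicate 1 (adjusted p = 0.0539) and without BMS493 replicate 2 (0.0562), and the Cd200r3 call without BMS493 replicate 1 (adjusted p = 0.0576) and without BMS493 replicate 2 (0.057). Chosen after its values were seen, Adgre4 (chr17:55749984-55853662), an adhesion receptor related to F4/80, had 116, 68.2 and 72.8 CPM in ATRA macrophages, against 0.657, 2.225 and 1.92 CPM in BMS493 macrophages (log2 fold change 5.81, SE 0.50, adjusted p = 2.12e-05). Macrophages cultured alone had 64.2 ± 29.4 CPM of it and co-cultured macrophages 14.02 ± 1.585 CPM, so its ATRA level was near that of culture alone.

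**Figure D4:**
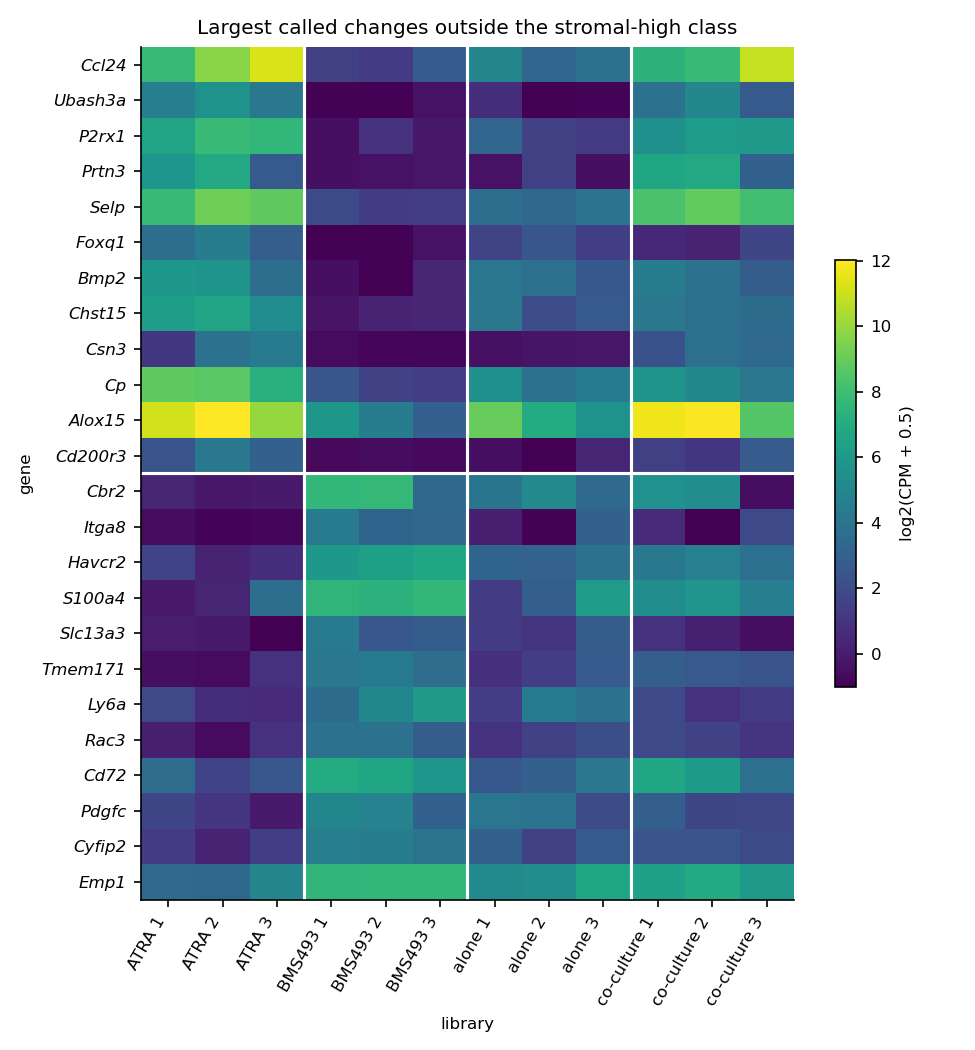
Colour gives log2(CPM + 0.5) for the 12 genes with the largest increases and the 12 with the largest decreases that met the naming rule outside the stromal-high class. That rule takes called genes with at least 10 CPM on average in the higher group, no overlap between groups and no model-type name. Columns are ATRA, BMS493, alone and co-cultured macrophage libraries. The upper 12 genes are brighter in ATRA than in BMS493 columns, the lower 12 are darker, and the alone and co-culture columns differ from gene to gene.

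Fewer genes outside the class fell in ATRA macrophages than rose, and the named genes among them had varied functions. Havcr2 (chr11:46454935-46481255), an inhibitory receptor of T cells and macrophages, had 2.55, 0.735 and 1.11 CPM in ATRA macrophages, against 60.1, 85.1 and 100.4 CPM in BMS493 macrophages. Its decrease was -5.73 on the log2 scale (SE 0.55, adjusted p = 5.99e-05), and the context levels of 10.3 ± 3.303 CPM in macrophages cultured alone and 18.9 ± 5.89 CPM in co-culture lay between the treated groups. Emp1 (chr6:135362545-135383173), a small membrane protein, had 10.35, 9.55 and 29.9 CPM in ATRA macrophages, against 192, 198 and 199.6 CPM in BMS493 macrophages, with BMS493 libraries within a few CPM of each other (log2 fold change -3.54, SE 0.48, adjusted p = 0.000891). Cadm1 (chr9:47530173-47857637), a cell adhesion molecule, had 9.34, 4.41 and 9.24 CPM in ATRA macrophages, against 107, 110.1 and 33.4 CPM in BMS493 macrophages (log2 fold change -3.39, SE 0.55, adjusted p = 0.00287). Co-cultured macrophages had 5.39 ± 1.39 CPM of Cadm1, close to the ATRA level, whereas macrophages alone had 46.8 ± 24.97 CPM. Tmem171 had 0.196, 0.155 and 1.36 CPM in ATRA macrophages, against 18.2, 21.15 and 12.04 CPM in BMS493 macrophages (log2 fold change -4.86, adjusted p = 0.00507). Rac3 (chr11:120721470-120723969), a small GTPase, had 0.555, 0.155 and 1.33 CPM in ATRA macrophages, against 14.4, 14.4 and 6.68 CPM in BMS493 macrophages (log2 fold change -4.07, adjusted p = 0.00196), and its call was lost in the fit on the 6 libraries alone (adjusted p = 0.0504). Cd72, an inhibitory co-receptor first described on B cells, had 12.05, 2.59 and 5.35 CPM in ATRA macrophages, against 131, 101.5 and 57.9 CPM in BMS493 macrophages (log2 fold change -3.79, adjusted p = 0.00933), and its call was lost without ATRA replicate 2 (adjusted p = 0.0556).

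The remaining large decreases lost their calls when single libraries were left out. Cbr2 (chr11:120729489-120732114), a carbonyl reductase that lies close to Rac3, had 0.784, 0.387 and 0.464 CPM in ATRA macrophages, against 198, 201 and 9.64 CPM in BMS493 macrophages (log2 fold change -7.88, adjusted p = 0.0195). BMS493 replicate 3 was far below the other BMS493 libraries but above all ATRA libraries, and the call was lost without ATRA replicate 1 (adjusted p = 0.0707), without ATRA replicate 2 (0.11), without BMS493 replicate 1 (0.0503) and without BMS493 replicate 2 (0.0558). S100a4, a calcium-binding protein of motile cells, had 0.4245, 0.7735 and 12.4 CPM in ATRA macrophages, against 184, 167 and 199.5 CPM in BMS493 macrophages (log2 fold change -5.34, adjusted p = 0.0339). Its call was lost in the fit on the 6 libraries alone (adjusted p = 0.101), in the fit on the 15 cultured macrophage libraries (0.0596), without ATRA replicate 1 (0.1), without ATRA replicate 2 (0.147), without BMS493 replicate 1 (0.07), without BMS493 replicate 2 (0.0759) and without BMS493 replicate 3 (0.0549). Ly6a, a surface protein of stem and activated cells, had 3.17, 1.12 and 0.989 CPM in ATRA macrophages, against 11.6, 31.15 and 66.4 CPM in BMS493 macrophages (log2 fold change -4.30, adjusted p = 0.0203), and lost its call in the fit on the 6 libraries alone (adjusted p = 0.0532), without batch mbb340 (0.091), without ATRA replicate 2 (0.112) and without BMS493 replicate 3 (0.0575). Pdgfc, a growth factor for mesenchymal cells, had 2.78, 1.59 and 0.464 CPM in ATRA macrophages, against 30.7, 26.9 and 7.64 CPM in BMS493 macrophages (log2 fold change -3.68, adjusted p = 0.0237), and lost its call in the fit on the 6 libraries alone (adjusted p = 0.0829), without ATRA replicate 2 (0.112), without BMS493 replicate 1 (0.0726) and without BMS493 replicate 2 (0.0733). Itga8, an integrin subunit, Slc13a3, a dicarboxylate transporter, and Cyfip2, a regulator of actin branching, fell by 6.91, 4.97 and 3.59 on the log2 scale. Each of these 3 calls was lost whichever of the 6 libraries was left out, with adjusted p between 0.0583 and 0.191 for Itga8, between 0.0572 and 0.161 for Slc13a3 and between 0.0504 and 0.169 for Cyfip2.

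Activation genes were described by list, beside 2.23% of all genes tested that rose and 1.78% that fell. Of 12 tested alternative activation genes, 3 rose and none fell (median log2 fold change 1.54), namely Ccl24, Chil3 and Retnla. Chil3, a chitinase-like protein, had 2.09, 43.6 and 22.6 CPM in ATRA macrophages, against 0.188, 0.459 and 0.3201 CPM in BMS493 macrophages (log2 fold change 6.18, adjusted p = 0.00427). Retnla, a secreted resistin-like protein, was near the detection limit at 0.555, 3.09 and 2.32 CPM in ATRA macrophages, against 0.0313, 0 and 0.4802 CPM in BMS493 macrophages, and its call (adjusted p = 0.0396) was lost in the fit on the 6 libraries alone (adjusted p = 0.254), in the fit on the 15 cultured macrophage libraries (0.131), without ATRA replicate 2 (0.162), without ATRA replicate 3 (0.0517), without BMS493 replicate 1 (0.147) and without BMS493 replicate 2 (0.158). Among 18 inflammatory cytokine genes none was called (median -0.23), and 1 was higher with the batch block. Without batch mbb340, where 2231 genes were called in all, 5 cytokine genes were higher and 5 lower, and 2 were lower without ATRA replicate 3. Of 14 interferon response genes, 4 fell and none rose, with 13 of 14 below 0 and a median of -0.98. Irf7, the regulator that amplifies interferon production, had 10.9, 12.3 and 11.2 CPM in ATRA macrophages, against 36.8, 34.4 and 25.1 CPM in BMS493 macrophages (log2 fold change -1.43, adjusted p = 0.0137). Oasl2, an antiviral protein of the oligoadenylate synthetase family, had 24.6, 12.1 and 24.9 CPM in ATRA macrophages, against 80.4, 64.8 and 64.6 CPM in BMS493 macrophages (log2 fold change -1.72, adjusted p = 0.0191). The Irf7 call was lost without ATRA replicate 1 (adjusted p = 0.0522), without ATRA replicate 2 (0.0556), without BMS493 replicate 1 (0.0594) and without BMS493 replicate 2 (0.0529). The Oasl2 call was lost without ATRA replicate 2 (adjusted p = 0.102) and without BMS493 replicate 1 (0.0685). The others, Isg15 (log2 fold change -1.39, adjusted p = 0.0357) and Oas1a (log2 fold change -1.20, adjusted p = 0.0396), lost their calls without any single library other than ATRA replicate 3, at adjusted p between 0.0761 and 0.186. The MHC class II list had 0 of 7 called, with a median of -0.14.

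Receptors, adhesion molecules and signal components gave small counts in both directions, beside 2.23% of all genes tested that rose and 1.78% that fell. Of 14 purinergic genes, 3 rose, or 5 with the batch block or without BMS493 replicate 3 and 6 without batch mbb340, of which P2rx7, the ATP channel that triggers the inflammasome, had 195.5, 174 and 106 CPM in ATRA macrophages, against 58.35, 56.75 and 49.3 CPM in BMS493 macrophages (log2 fold change 1.59, adjusted p = 0.00359). P2rx4, a related channel, had 773, 794 and 467 CPM in ATRA macrophages, against 298, 298 and 329 CPM in BMS493 macrophages (log2 fold change 1.20, adjusted p = 0.011), and lost its call in the fit on the 6 libraries alone (adjusted p = 0.0988), without ATRA replicate 2 (0.0736), without BMS493 replicate 1 (0.0513) and without BMS493 replicate 2 (0.0694). Of 17 integrin and adhesion genes, 4 rose and Cadm1 fell, whereas 2 rose without ATRA replicate 2 or BMS493 replicate 2 and 1 rose without BMS493 replicate 1. Pecam1, a junctional molecule of endothelium and leukocytes, had 8.295, 10.8 and 4.297 CPM in ATRA macrophages, against 0.0939, 0.6004 and 1.24 CPM in BMS493 macrophages (log2 fold change 3.67, adjusted p = 0.0257), and its call was lost in the fit on the 6 libraries alone (adjusted p = 0.102), without ATRA replicate 1 (0.0577), without ATRA replicate 2 (0.0966), without BMS493 replicate 1 (0.0743) and without BMS493 replicate 2 (0.113). Among 14 genes of TGF-beta signalling, Ltbp1, Ltbp3 and Smad3 rose and Ltbp2 fell. Smad3, which carries the TGF-beta signal to the nucleus, had 63.2, 54.7 and 33.7 CPM in ATRA macrophages, against 8.51, 9.89 and 4.04 CPM in BMS493 macrophages (log2 fold change 2.82, adjusted p = 0.0257), with its call lost without ATRA replicate 1 (adjusted p = 0.071), without ATRA replicate 2 (0.0858), without BMS493 replicate 1 (0.0773), without BMS493 replicate 2 (0.0825) and without BMS493 replicate 3 (0.0813). The Ltbp2 decrease of 3.59 on the log2 scale (adjusted p = 0.0155) lost its call without ATRA replicate 1 (adjusted p = 0.063), without ATRA replicate 2 (0.0858) and without BMS493 replicate 3 (0.0502). Ltbp2 and Ltbp3 belong to the stromal-high class, and the stromal amount estimated further below was 93.5% of the BMS493 level of Ltbp2. Of 18 lineage transcription factors, Gata6 and Irf8 rose, the Irf8 increase being 0.98 on the log2 scale (adjusted p = 0.0387). That call was lost with any 1 library left out other than ATRA replicate 3, at adjusted p between 0.0964 and 0.194. Of 16 genes for apoptotic cell uptake, Axl rose and Havcr2 fell, whereas 2 rose with the batch block, and 3 rose and 2 fell without batch mbb340.

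Metabolic and stress lists followed the same description, beside 2.23% of all genes tested that rose and 1.78% that fell. A single call made up 5% of the cholesterol synthesis, 7.14% of the glutathione and 8.33% of the liver X receptor lists. In the Ms4a list a single call made up 12.5%, while 4.01% of all genes tested were called. Of 18 hypoxia and glycolysis genes, 2 rose and 1 fell, with 4 higher and 3 lower under the batch block and 4 in each direction without batch mbb340. Vegfa, the growth factor for blood vessels, had 186, 317 and 248 CPM in ATRA macrophages, against 16.1, 19.3 and 51.5 CPM in BMS493 macrophages (log2 fold change 3.16, adjusted p = 0.00451). Of 20 cholesterol synthesis genes, Sc5d alone rose, with 269.7, 355 and 384 CPM in ATRA macrophages, against 70.7, 96.2 and 98.8 CPM in BMS493 macrophages (log2 fold change 1.97, adjusted p = 0.000135). Of 12 liver X receptor target and cholesterol export genes, Abcg1, a sterol exporter, fell at 3.298, 4.91 and 5.94 CPM in ATRA macrophages, against 19.8, 10.2 and 18.2 CPM in BMS493 macrophages (log2 fold change -1.73, adjusted p = 0.00841, or 0.0728 in the fit on the 6 libraries alone). In the Ms4a family of tetraspan proteins, 1 of 8 fell, or 5 with the batch block, and the median was -1.61. Ms4a6d had 215.5, 138 and 329 CPM in ATRA macrophages, against 809.5, 1180 and 1254 CPM in BMS493 macrophages (log2 fold change -2.21, adjusted p = 0.000729). Of 14 glutathione and oxidative stress genes, 1 fell, or 6 with the batch block, namely Cbr3, another carbonyl reductase (log2 fold change -1.54, adjusted p = 0.00768). Among 15 immediate early genes, 2 rose and 2 fell, and no rise was called without ATRA replicate 2, BMS493 replicate 1 or BMS493 replicate 2. Jun, a subunit of the AP-1 factor, had 24.75, 38.2 and 46.6 CPM in ATRA macrophages, against 133, 106 and 89.1 CPM in BMS493 macrophages (log2 fold change -1.55, adjusted p = 0.006). No gene for matrix metalloproteinases or their inhibitors was called among 11 (median -1.36), and 5 were lower with the batch block.

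All 24 genes of the cell cycle list had a log2 fold change below 0 (median -1.91), and none of them was called. Tk1, the thymidine kinase of DNA synthesis, had 1.89, 0.928 and 4.11 CPM in ATRA macrophages, against 27.2, 27.3 and 3.801 CPM in BMS493 macrophages (log2 fold change -3.03, adjusted p = 0.0798). Replicate 3 did not follow replicates 1 and 2 here, and leaving out batch mbb340 gave 19 called lower, DESeq2 gave 7 and leaving out ATRA replicate 3 gave 5. Of all genes, those fits called 1208, 833 and 595 lower, against 316 in the main fit. Of these 24 genes, 17 belong to the stromal-high class, and the part of stromal transcripts in their difference was not tested.

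Inside the stromal-high class, 32 genes rose in ATRA macrophages. Camkk1 (chr11:73019008-73042073), a kinase that activates calmodulin-dependent kinases, had 54.02, 40.4 and 29.7 CPM in ATRA macrophages, against 0.219, 0.459 and 0 CPM in BMS493 macrophages (log2 fold change 7.53, SE 1.26, adjusted p = 0.00359). It lies downstream of P2rx1 on the same strand, and PDPN+ cells from BMS493 cultures had 5.44 ± 3.36 CPM. Ltbp3, a latent TGF-beta binding protein, had 106, 191.5 and 134 CPM in ATRA macrophages, against 11.6, 8.02 and 4.16 CPM in BMS493 macrophages (log2 fold change 4.23, SE 0.66, adjusted p = 0.00238). Nap1l5, of the nucleosome assembly protein family, had 4.44, 23.5 and 39.5 CPM in ATRA macrophages, against 0, 0 and 0.4001 CPM in BMS493 macrophages (log2 fold change 7.47, adjusted p = 0.0204), and lost its call in the fit on the 6 libraries alone (adjusted p = 0.0591), without ATRA replicate 2 (0.0607), without BMS493 replicate 1 (0.0786) and without BMS493 replicate 2 (0.0911). Axl, a receptor that recognises dying cells through bridging ligands, had 339.8, 276 and 67.8 CPM in ATRA macrophages, against 34.5, 36.02 and 52.2 CPM in BMS493 macrophages (log2 fold change 2.55, adjusted p = 0.0329), and lost its call in the fit on the 6 libraries alone (adjusted p = 0.0999), without ATRA replicate 1 (0.113), without ATRA replicate 2 (0.115), without BMS493 replicate 1 (0.118), without BMS493 replicate 2 (0.144) and without BMS493 replicate 3 (0.0595).

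The 156 genes that fell inside the class included members of the fibroblast and matrix lists. Of 16 fibroblast genes 8 fell (50%, median -4.24), and of 14 tested matrix and contractile genes 6 fell (42.9%, median -1.66). The share that fell was 1.78% of all genes tested and 6.89% inside the class. Col3a1, a fibrillar collagen chain, had 6.24, 9.17 and 0.773 CPM in ATRA macrophages, against 400.4, 192 and 193 CPM in BMS493 macrophages (log2 fold change -5.54, adjusted p = 0.041). Acta2, the smooth muscle actin of myofibroblasts, had 13.6, 6.38 and 4.98 CPM in ATRA macrophages, against 95.9, 239 and 220.1 CPM in BMS493 macrophages (log2 fold change -4.40, adjusted p = 0.000422). The Col3a1 call was lost whichever of the 6 libraries was left out, at adjusted p between 0.0546 and 0.129. The fibroblast count was 2 without ATRA replicate 2, 3 without BMS493 replicate 1 or 2, and 5 without any of the other 3 libraries. The summed matrix and contractile level went the other way, at 6242, 11980 and 13260 CPM in ATRA macrophages and 1451, 2213 and 10130 CPM in BMS493 macrophages, since Thbs1 and Fn1, which macrophages also make, held most of it and were not called. Mesothelial markers summed to 0.392, 0.232 and 0 CPM in ATRA macrophages and 26.7, 10.9 and 0.9203 CPM in BMS493 macrophages, with 0 of 6 tested members called. The decreases named by the size rule included B3gat2, Sod3, Mfap5, Igfbp2 and Serping1. Sod3, the extracellular superoxide dismutase, had 0.0327, 0.07735 and 0.0618 CPM in ATRA macrophages, against 7.35, 10.1 and 39.1 CPM in BMS493 macrophages (log2 fold change -8.24, SE 0.84, adjusted p = 0.000103), and PDPN+ cells from BMS493 cultures had 383 ± 490.0 CPM. Mfap5, a microfibril protein, had 0.163, 0.07735 and 0 CPM in ATRA macrophages, against 11.3, 14.9 and 17.45 CPM in BMS493 macrophages (log2 fold change -7.38, adjusted p = 0.00054), and those PDPN+ cells had 203.5 ± 68.4 CPM. Serping1 fell by 6.84 on the log2 scale (adjusted p = 0.00215). Igfbp2, an insulin-like growth factor binding protein, had 0, 0.309 and 0 CPM in ATRA macrophages, against 18.9, 14.7 and 2.48 CPM in BMS493 macrophages, and its call (adjusted p = 0.0414) was lost in the fit on the 6 libraries alone (adjusted p = 0.0766), in the fit on the 15 cultured macrophage libraries (0.0619), without ATRA replicate 1 (0.139), without ATRA replicate 2 (0.0689), without ATRA replicate 3 (0.0725), without BMS493 replicate 1 (0.101) and without BMS493 replicate 2 (0.1). B3gat2 rested on 1 library, with 0.5225, 0.271 and 0.3401 CPM in ATRA macrophages, against 1.095, 371 and 0.9203 CPM in BMS493 macrophages, and its call (adjusted p = 0.028) was lost with the batch block (adjusted p = 0.0502), in the fit on the 6 libraries alone (0.186), without ATRA replicate 1 (0.0951), without ATRA replicate 2 (0.142), without ATRA replicate 3 (0.0594) and without BMS493 replicate 2 (0.575). Its place in the class is uncertain too, since PDPN+ cells alone had 198 ± 342 CPM. PDPN+ cells from BMS493 cultures had 0.699 ± 1.08 CPM of it.

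The size of the stromal contribution was estimated from the 16 fibroblast genes, as the median of each gene's excess over macrophages alone divided by its level in PDPN+ BMS493 cells of the same batch. This share was 0.133%, 0.0117% and about 0% in the ATRA libraries, against 2.81%, 2.69% and 3.34% in the BMS493 libraries. In co-cultured macrophages it was 3.87%, 1.71% and 0.523%. Multiplying the BMS493 shares by each gene's level in the PDPN+ BMS493 cells gave the level that such transcripts would add. For the 156 genes that fell inside the class, that amount had a median of 59.2% of the BMS493 macrophage level, and it was over 50% for 104 genes and under 10% for 12. For the 160 genes that fell outside the class the median was 1.06%, but the class border, a ratio of PDPN+ to macrophage levels, itself keeps this amount low there, so the difference between the classes is no separate result. The estimate takes PDPN+ BMS493 cells as the source and was computed with fibroblast genes that are themselves in the class. Podoplanin itself (Pdpn), the marker used to sort the stromal cells, had 0.4245, 1.24 and 130.3 CPM in ATRA macrophages, against 71.8, 120.1 and 683 CPM in BMS493 macrophages (adjusted p = 0.545, or 0.0199 with the batch block), and batch mbb340 was highest in both groups.

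**Figure D5:**
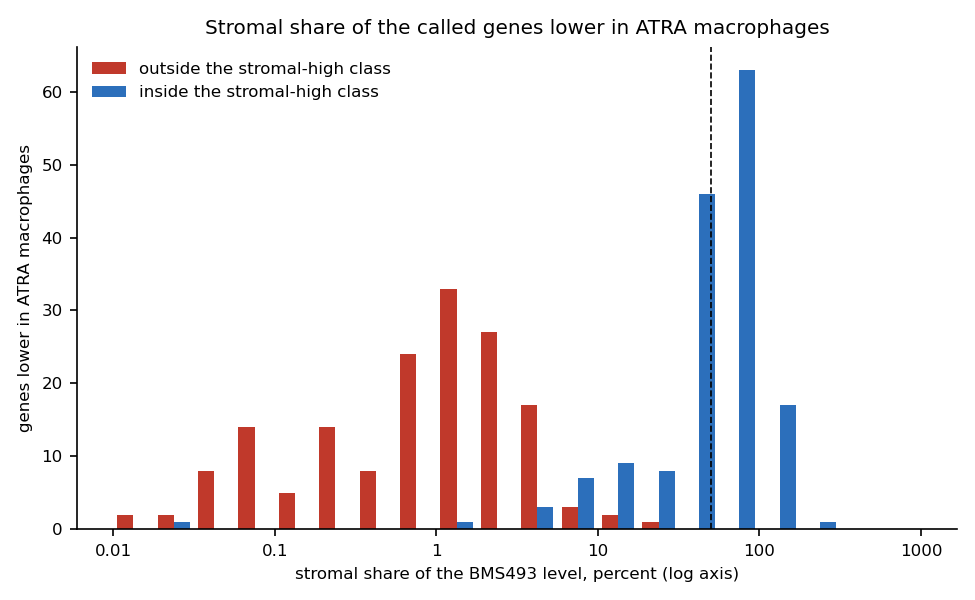
Histogram of the 316 genes that fell in ATRA macrophages by the estimated stromal share of their BMS493 level, in percent on a log axis, with the dashed line at 50%. The 160 genes outside the stromal-high class (red) centre near 1%, and the 156 inside it (blue) centre near 59%, a separation that follows from the rule defining the class.

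Macrophages cultured without either compound placed the differences. For the 364 genes that rose outside the class, the mean of macrophages alone lay between the ATRA and BMS493 means in 348, nearer to BMS493 on the scale of log2(CPM + 0.5) in 224 and nearer to ATRA in 140. The co-culture mean lay between them in 315, nearer to ATRA in 274 and nearer to BMS493 in 90. For the 160 genes that fell outside the class, the alone mean was nearer to ATRA in 96 and nearer to BMS493 in 64, and the co-culture mean was nearer to ATRA in 100 and nearer to BMS493 in 60. Genes chosen for a large difference between ATRA and BMS493 favour positions in between, so these counts are descriptions with no test.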

How the data were processed

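PolyA RNA of F4/80+ macrophages and PDPN+ cells was sequenced by the study. The submitters' processing notes name GSNAP and the mouse build GRCm38; no version, annotation, strand setting or filter is given in the sources used here. Per the file headers, the authors deposited for each of 50764 gene models a count of uniquely aligning reads and a size-factor-adjusted RPKM. Counts as deposited were used for all tests, and the deposited RPKM only to order receptor levels, with 48 gene models lacking a value. Identifiers without a symbol (192, holding 0.0358% of counts) stayed in the library sizes and were open to the tests, and only the naming rule left them out. Gene positions are those of GENCODE M21 on GRCm38, and promoters come from RefSeq GRCm38.p6.

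Counts of 18 macrophage libraries (6 groups of 3) were fitted together in edgeR 4.0.16 (R 4.3.3, limma 3.58.1) with group as the factor, TMM scaling and edgeR's expression filter, and the contrast was ATRA minus BMS493. The common biological coefficient of variation was 0.499. CPM values are TMM-scaled over all 30 libraries. Standard errors were computed from the log2 fold change and the F statistic. The fitting step was also run on simulated counts that varied less than these data and had no batch differences. That run does not measure its accuracy on these data. Precision is limited by 3 libraries per group and, for genes with few counts, by counting error. Unless the counting used strand, reads of a gene and its antisense or overlapping partner cannot be told apart.

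The replicate number stands for the processing batch in the labels, so replicates are paired by label. Over genes, the deviations of same-numbered ATRA and BMS493 libraries from their group means correlated at 0.364, 0.0722 and 0.428 (differently numbered pairs ranged from -0.4304 to 0.3195). No 2 replicates were within sampling noise of each other.

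The libraries, lists and rules were chosen with earlier results of these data known, and the eicosanoid and fatty acid synthesis lists after these values were seen. Named genes were the called genes with the largest log2 fold changes (12 per direction outside and 6 inside the stromal-high class) with at least 10 CPM on average in the higher group and no overlap between groups, plus the retinoid response, breakdown and receptor genes of at least 1 CPM and a panel of 14 genes. Some genes that the rule names are not reported here. Called members of other lists served as examples. Alternatives were the batch block, DESeq2 1.42.0 size factors and its Wald test, no or a stricter count filter, fits on 6 or 15 libraries, removal of the stromal-high class, other class borders, and leaving out batch mbb340 or each library.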

Additional observations from a re-analysis of the deposited data

How the results depend on the processing

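Among 712 called genes none changed direction under any alternative, and 710 of them (99.7%) were also called with the batch block. Calls in all and outside the stromal-high class, 712 and 524 as reported, were 1459 and 1109 with the replicate block, 1612 and 1157 with the DESeq2 Wald test, 334 and 203 in the fit on the 6 libraries alone, and 2231 and 1748 without batch mbb340. Leaving out 1 library gave 274 to 1195 in all and 209 to 971 outside the class. The other settings stayed within 1.5 times, at 484 to 758 and 409 to 584. With the class removed before scaling, 320 genes rose and 164 fell, against 364 and 160 outside the class as reported. No scaling moved the median of all genes by more than 0.04 on the log2 scale. Of 42 named genes called, 24 kept their call under all 15 alternatives and 41 with the block. Named genes that were not called changed sign in places. Tgfb2 had a log2 fold change of -0.055 with the block and -0.075 to 1.17 with 1 library left out (lowest without ATRA replicate 1). Cebpe had -0.967 without batch mbb340 and -1.133 to 2.139 with 1 library left out (lowest without ATRA replicate 3). Rara had 0.002 with the block, 0.049 without batch mbb340 and -0.205 to 0.225 with 1 library left out (above 0 without ATRA replicate 1 or 2 or BMS493 replicate 3). Rxrg had 0.629 without batch mbb340 and -0.446 to 0.941 with 1 library left out (above 0 without ATRA replicate 2 or BMS493 replicate 3). The cause of these shifts was not tested. Where a fit lacked a library, the remaining 2 carried the group. Depth limits genes such as Cyp26c1 and Retnla, which rested on few counts.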

Other observations

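Eicosanoid genes, a list chosen after values were seen, held 6 increases and 2 decreases among 26 tested members in ATRA macrophages, with a median log2 fold change of 0.17, while 2.23% of all genes tested rose and 1.78% fell. Tbxas1, the thromboxane synthase, had 504, 484 and 511 CPM in ATRA macrophages, against 131, 162 and 143.5 CPM in BMS493 macrophages (log2 fold change 1.83, adjusted p = 1.46e-05). Its libraries were tightly grouped within each treatment. Ptgis, the prostacyclin synthase, had 195.5, 274 and 165 CPM in ATRA macrophages, against 14.2, 15.4 and 16.3 CPM in BMS493 macrophages (log2 fold change 3.84, adjusted p = 0.0018). Ptgs1, the constitutive cyclooxygenase that supplies both, had 453, 296 and 829 CPM in ATRA macrophages, against 22.1, 49.5 and 180.2 CPM in BMS493 macrophages (log2 fold change 2.68, adjusted p = 0.0194), and its call was lost in the fit on the 6 libraries alone (adjusted p = 0.162), without BMS493 replicate 1 (0.0518) and without BMS493 replicate 2 (0.1). Ptger4, a receptor for prostaglandin E, had 47.1, 59.9 and 41.98 CPM in ATRA macrophages, against 7.92, 7.59 and 16.9 CPM in BMS493 macrophages (log2 fold change 2.25, adjusted p = 0.00224). Alox5ap, the activating protein of leukotriene synthesis, went the other way with 196, 173.5 and 212 CPM in ATRA macrophages, against 366, 502 and 479 CPM in BMS493 macrophages (log2 fold change -1.16, adjusted p = 0.0036). The number of increases was 4 without BMS493 replicate 1 and 3 without BMS493 replicate 2.

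Fatty acid synthesis genes, also listed after values were seen, held 5 increases and no decrease among 15 tested, with a median log2 fold change of 0.27, beside the same shares of all genes. Mlxipl, the carbohydrate-responsive transcription factor of lipogenesis, had 67.01, 68.03 and 38.55 CPM in ATRA macrophages, against 2.785, 2.72 and 0.4001 CPM in BMS493 macrophages (log2 fold change 4.93, adjusted p = 0.00142). Acly, which makes cytosolic acetyl-CoA from citrate, had 1488, 2212 and 1074 CPM in ATRA macrophages, against 265.5, 255 and 375 CPM in BMS493 macrophages (log2 fold change 2.47, adjusted p = 0.00432). Acaca, which carboxylates acetyl-CoA, had 54.7, 61.7 and 41.4 CPM in ATRA macrophages, against 8.45, 4.73 and 9.003 CPM in BMS493 macrophages (log2 fold change 2.88, adjusted p = 0.00304). All 3 had ranges that did not overlap. Fasn, the fatty acid synthase that follows them, had 65.9, 73.5 and 61.0 CPM in ATRA macrophages, against 69.55, 64.7 and 42.9 CPM in BMS493 macrophages (log2 fold change 0.23, adjusted p = 0.831). Without ATRA replicate 1, ATRA replicate 2, BMS493 replicate 1 or BMS493 replicate 2 the number of increases was 3.

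Mast cell markers summed to 26.8, 19.5 and 2.04 CPM in ATRA macrophages, against 0.0313, 1.201 and 0.12 CPM in BMS493 macrophages. None of the 6 was called, and 4 were called higher with the batch block and 5 without batch mbb340. Of all genes, those fits called 738 and 1023 higher, against 396 in the main fit. Dendritic cell markers summed to 204.6, 208 and 31.4 CPM in ATRA macrophages and to 53.7, 34.0 and 12.6 CPM in BMS493 macrophages, with 0 of 5 tested called. Granulocyte markers summed to 7.05, 12.1 and 45.9 CPM in ATRA macrophages and 15.9, 33.9 and 123.0 CPM in BMS493 macrophages. Whether such cells contribute to any result was not tested.

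Fam169a, a called decrease chosen after its values were seen, rested on 1 library. It had 0.0653, 0.0387 and 0.124 CPM in ATRA macrophages, against 0.407, 0.106 and 169 CPM in BMS493 macrophages (log2 fold change -9.40, adjusted p = 0.0284), and the adjusted p without BMS493 replicate 3 was 0.525. PDPN+ cells from BMS493 cultures had 0.625 ± 0.439 CPM.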
